A study of Homo sapiens with 4 samples.

Results

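The BCL2 family of survival and death genes was examined in EJM cells, a human multiple myeloma line, across 4 days of induction of an IκBα super-repressor. Members were taken by gene symbol from a fixed list of 10 genes: the anti-apoptotic BCL2, BCL2L1, BCL2A1 and MCL1, and the pro-apoptotic BAX, BAK1, BID, BIK, BCL2L11 and PMAIP1. The annotation named 32 of 15246 probes for 8 of these genes, and all 8 had a value on at least 3 arrays, out of 7713 features measured that often. BID and BCL2L11 had no probe under their symbols or Entrez identifiers and so have no value here, though their promoter windows enter the motif count below.

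On each of 4 two-colour arrays, EJM cells given 20 µg/ml doxycycline for 1, 2, 3 or 4 days (Cy5) were hybridised against uninduced EJM cells (Cy3). Both channels came from the same line, in which the super-repressor is placed under a tetracycline repressor, so the uninduced cells carried the construct too; the labels name no treatment for them. The sources used here do not say whether the line is 1 clone or whether the same control RNA served all 4 arrays. No dye swap and no array of doxycycline without the construct are among the samples, so a dye bias or a drug effect cannot be told apart from induction.

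Proteins of this family decide, at the outer membrane of mitochondria, whether cytochrome c is released and caspases are activated. BCL2, BCL2L1 (BCL-XL), BCL2A1 (BFL1, also called A1) and MCL1 hold the membrane closed. BAX and BAK1 form the pores, and the BH3-only proteins, among them BIK and PMAIP1 (NOXA), bind the survival proteins and so free the pore formers. Myeloma cells often depend on MCL1, and BCL2A1 and BCL2L1 are textbook transcriptional targets of NF-κB, the factor that the super-repressor holds in the cytoplasm.

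The upstream stretches of BCL2A1 and BCL2L1 are shown because both are known as NF-κB targets and their values over the days had opposite slopes. Each is the 250 bases before the annotated start, 5′ to 3′ on the gene's own strand, from RefSeq on GRCh38.p14, with every TATAAA on either strand in capitals. BCL2A1 is given for chr15:79971197-79971446 (minus strand) and BCL2L1, at the outermost of its 2 annotated starts, for chr20:31723964-31724213 (minus strand).
BCL2A1: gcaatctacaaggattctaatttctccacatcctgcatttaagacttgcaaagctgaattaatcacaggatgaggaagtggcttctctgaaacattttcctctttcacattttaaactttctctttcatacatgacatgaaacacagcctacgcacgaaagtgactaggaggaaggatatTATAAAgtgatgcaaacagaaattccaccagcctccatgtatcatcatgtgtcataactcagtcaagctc
BCL2L1: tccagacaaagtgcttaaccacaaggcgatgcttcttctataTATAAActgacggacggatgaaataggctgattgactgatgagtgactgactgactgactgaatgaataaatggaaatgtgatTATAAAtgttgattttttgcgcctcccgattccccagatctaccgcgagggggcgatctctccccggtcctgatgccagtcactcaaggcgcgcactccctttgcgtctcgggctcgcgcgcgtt
Promoter windows (250 bases before to 50 after a start) were found for 8 of the 10 listed genes, 13 windows in all; MCL1 and BIK had no entry. TATAAA was in 2 of the 13, those shown, and in 11.5% of all 35116 windows. The κB consensus motif, searched on both strands, was in 0 of the 13 and in 11.3% of all windows, which says only that these letters are not in these short windows.

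All values below are log2 ratios of induced over uninduced cells (Cy5 over Cy3), so a negative value means lower in induced cells. The direction was taken from the dyes in the labels and base 2 was assumed, since neither is stated with the values. A ratio gives no level, so members cannot be ranked by abundance and the plasma cell identity of EJM cannot be checked from these arrays. Of 8 plasma cell markers, all measured, 7 had a mean above 0 and 0 passed the test described below. Of 11 markers of other cells (T cell, myeloid, red cell, stromal and platelet) 8 were measured and 6 had a mean above 0. The 1 that passed was the globin gene HBB, at 0.85 ± 0.091 (SD, 4 arrays, limma adjusted p = 0.038). The other globin gene of that list, HBA1, did not, at -0.14 ± 0.42 (SD, 4 arrays; limma adjusted p = 0.76), with -0.53, 0.45, -0.24 and -0.23 on days 1 to 4. Their part in the members' values was not tested. Over probes, the SD of the ratios was 0.517 (day 1), 0.569 (day 2), 0.345 (day 3) and 0.380 (day 4). The first 2 arrays also lacked more values, 3860 and 4925 of 15246, while days 3 and 4 lacked 1702 and 1374. Across probes the day 3 and day 4 ratios correlated at r = 0.57, those of days 1 and 2 at r = 0.32, and days 1 and 4 at r = 0.020; these correlations are descriptions over probes that share a platform and possibly a control RNA.

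The first comparison asked whether members differed between induced and uninduced cells on average over the 4 days. None of the 8 passed the test, which does not show that they were equal. With limma on the mean of the 4 arrays against 0 and Benjamini-Hochberg adjustment over all 7713 features, 0 members passed a threshold of 0.05 on the adjusted p, where 0.337% of features passed (26 features). At an unadjusted p under 0.05 the number of members was also 0, where 12.5% of features lay. The member means ran, from lowest to highest, BCL2A1, BCL2, BAX, BCL2L1, PMAIP1, BAK1, BIK and MCL1, with every 95% confidence interval reaching over 0 and overlapping its neighbours' intervals. The smallest adjusted p was that of MCL1 (limma adjusted p = 0.40). MCL1 and BIK were above 0 on all 4 arrays. That held for 11.8% of features measured on all 4 arrays, and 13.4% lay below 0 on all 4.

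**Figure D1:**
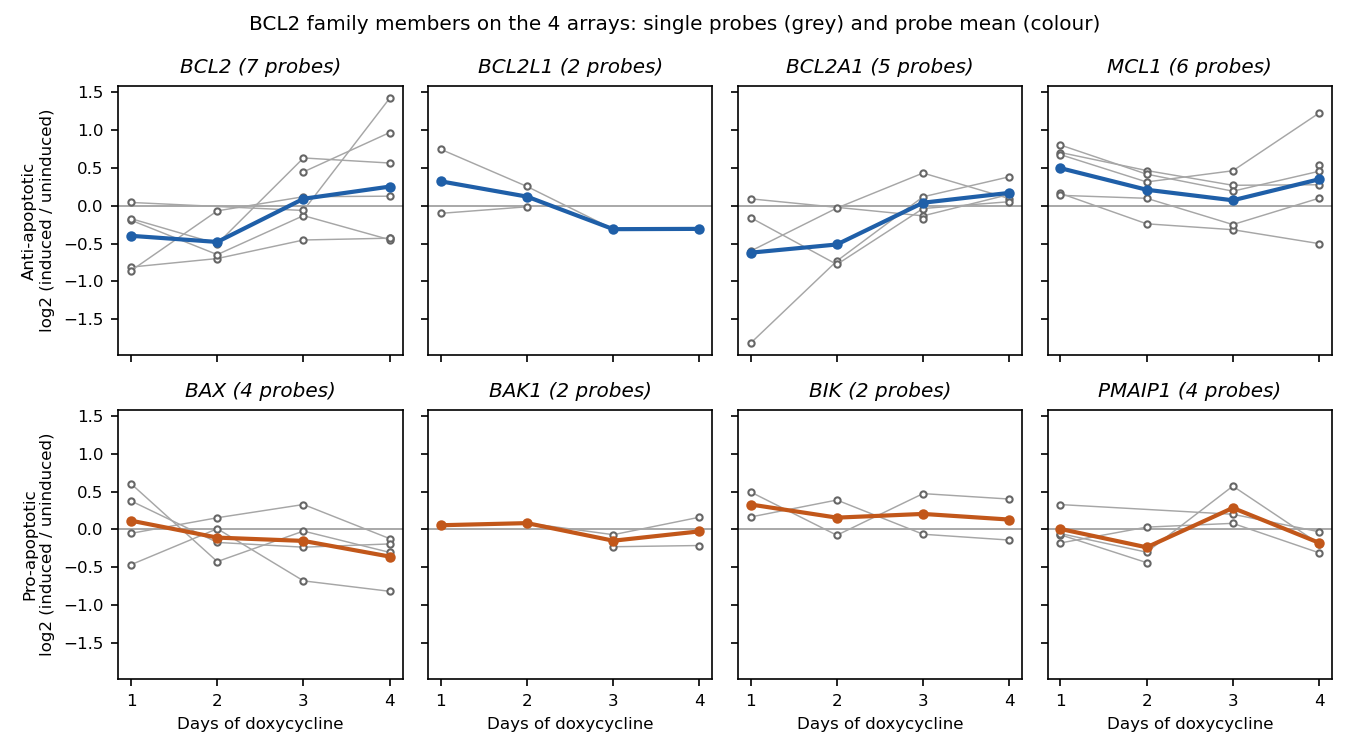
Log2 ratio of induced over uninduced cells (vertical axis) by days of doxycycline (horizontal axis, 1 array per day) for the 8 measured members, anti-apoptotic above and pro-apoptotic below. Open grey points are single probes, joined over the days on which they had a value, and coloured points are the probe mean per gene. BCL2A1 and BCL2 lay below 0 on days 1 and 2, while MCL1 and BIK lay above 0 on every day.

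Among the anti-apoptotic members, MCL1, a short-lived survival protein, had probe means of 0.50, 0.21, 0.073 and 0.35 on days 1 to 4. It was above 0 on every array, lowest on day 3. Its mean was 0.28 ± 0.18 (SD, 4 arrays), a ratio of 1.22 with a 95% confidence interval of 0.997-fold to 1.48-fold (limma adjusted p = 0.40). The 6 probes did not behave alike. Probe 30494_1 read 0.68, 0.32, 0.46 and 1.23 on days 1 to 4, probe 30120_1 read 0.80, 0.42, 0.19 and 0.46, and probe 16466_1 read 0.70, 0.47, 0.27 and 0.28. These 3 probes were above 0 on all 4 arrays. Probe 27051_1 read 0.16, -0.24, -0.32 and -0.50 and probe 36123_1 read 0.14, 0.099, -0.25 and 0.10, so one was mostly below 0 and the other near it. The last probe, 26351_1, had a single value, 0.54 on day 4. With each probe fitted as a feature of its own, 30494_1 had a mean of 0.67 ± 0.40 (SD, 4 arrays; limma adjusted p = 0.18 over 11669 probes). The accession in the annotation is the same for all 6, so which part or form of the MCL1 transcript each detects is not known here.

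BCL2A1, the survival gene best known as an NF-κB target, had probe means of -0.62, -0.51, 0.041 and 0.17 on days 1 to 4. The first 2 days were low and the last 2 near or above 0. The mean was -0.23 ± 0.39 (SD, 4 arrays; limma adjusted p = 0.60), with an interval from -0.62 to 0.16 on the log2 scale. Day 1 was the only member value at least 1.5-fold from even on any day, in the lower direction, where 10.6% of features lay that day (7.53% were as far higher). Most of it came from probe 26039_1, which read -1.82, -0.73, 0.12 and 0.38. Probe 24637_1 read -0.60, -0.030, 0.43 and 0.095, and probe 28638_1 read -0.16, -0.78, -0.036 and 0.054. All 3 were lowest on day 1 or day 2, but which of these days was lowest differed. At 16089_1 the ratio lay near 0, with 0.092 on day 1, -0.13 on day 3 and 0.15 on day 4, and probe 28639_1 had only a day 3 value, -0.18.

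BCL2, the founding member, had probe means of -0.40, -0.48, 0.093 and 0.25 on days 1 to 4, again low on the first 2 days and above 0 on the last 2. Its mean was -0.13 ± 0.36 (SD, 4 arrays; limma adjusted p = 0.75; interval 0.705-fold to 1.18-fold). Its 7 probes split. Probe 16789_1 was below 0 on every array, at -0.81, -0.70, -0.45 and -0.43, and had the smallest adjusted p on the mean of the 25 member probes with at least 3 values (-0.60 ± 0.19, SD, 4 arrays; limma adjusted p = 0.14 over probes). Probe 17646_1 was also below 0 throughout, at -0.19, -0.645, -0.13 and -0.45. By contrast, probe 19332_1 read -0.17, -0.50, 0.63 and 0.565 and probe 31826_1 read -0.86, -0.067, 0.12 and 0.13, below 0 on days 1 and 2 and above 0 on days 3 and 4. The remaining 3 probes had values on 3 days or fewer: 34107_1 had 0.044 on day 1, -0.062 on day 3 and 1.42 on day 4, 24367_1 had 0.45 on day 3 and 0.97 on day 4, and 28859_1 had -0.43 on day 4. The BCL2 average therefore rested on 5, 4, 6 and 7 probes on days 1 to 4. Over the 4 probes present on every array it was -0.51, -0.48, 0.042 and -0.046, so the value above 0 on day 4 came with probes absent on day 2.

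BCL2L1, which encodes BCL-XL, ran the other way, with probe means of 0.32, 0.12, -0.31 and -0.30 on days 1 to 4. It was above 0 on days 1 and 2 and below 0 on days 3 and 4. The mean was -0.042 ± 0.32 (SD, 4 arrays; limma adjusted p = 0.92; interval 0.762-fold to 1.24-fold). Only probe 16454_1 had all 4 values, at 0.75, 0.26, -0.31 and -0.30. Probe 24267_1 had values on days 1 and 2 alone, -0.10 and -0.013, so the days 3 and 4 average is a single probe.

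Among the pro-apoptotic members, BAX, a pore former, had probe means of 0.12, -0.11, -0.15 and -0.36 on days 1 to 4, above 0 on day 1 alone and lowest on day 4. Its mean was -0.13 ± 0.19 (SD, 4 arrays; limma adjusted p = 0.69; interval 0.749-fold to 1.12-fold). All 4 of its probes had 4 values. Probe 35175_1 was the lowest, at -0.46, 0.010, -0.68 and -0.82, with a mean of -0.49 ± 0.36 (SD, 4 arrays; limma adjusted p = 0.27 over probes). The other probes had means between -0.055 and 0.078: 32672_1 read 0.38, -0.17, -0.23 and -0.19, 35088_1 read 0.60, -0.42, -0.021 and -0.30, and 30486_1 read -0.051, 0.16, 0.33 and -0.12. On day 4 all 4 BAX probes were below 0.

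BAK1, the other pore former, had the mean closest to 0 of all members. Its probe means were 0.056, 0.084, -0.15 and -0.025 on days 1 to 4, with a mean of -0.0084 ± 0.10 (SD, 4 arrays; limma adjusted p = 0.98). The interval ran from 0.829-fold to 1.19-fold, so a change in the mean beyond these folds lay outside it. Probe 16550_1 read 0.056, 0.084, -0.069 and 0.16, and probe 28705_1 entered on days 3 and 4 alone, at -0.23 and -0.21.

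BIK, a BH3-only protein of the endoplasmic reticulum, had probe means of 0.33, 0.16, 0.21 and 0.13 on days 1 to 4, above 0 on every array. Its mean was 0.21 ± 0.088 (SD, 4 arrays; limma adjusted p = 0.49; interval 0.963-fold to 1.38-fold), the smallest SD of the 8. The pair of probes offset each other: 17178_1 read 0.17, 0.39, -0.063 and -0.14, and 27678_1 read 0.495, -0.076, 0.47 and 0.40. PMAIP1 (NOXA), a BH3-only protein known to bind MCL1, showed no common direction, with probe means of 0.0068, -0.24, 0.285 and -0.18 on days 1 to 4. Its mean was -0.030 ± 0.23 (SD, 4 arrays; limma adjusted p = 0.94; interval 0.791-fold to 1.21-fold). The day 3 value came mostly from probe 27301_1, which read -0.054, -0.30, 0.57 and -0.19. Probe 27289_1 read -0.18, 0.031, 0.081 and -0.31. At 17640_1 the ratio was 0.33 on day 1, 0.20 on day 3 and -0.030 on day 4. At 19236_1 it was -0.070 on day 1 and -0.44 on day 2.

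Probe by probe, 25 member probes had 3 or 4 values, and the mean was above 0 for 14 of them and below 0 for 11. None passed with each probe as a feature (limma, where 0.471% of 11669 probes passed), and 6 had an unadjusted p under 0.05, where 13.6% of probes did. These 6 were MCL1 probes 30494_1, 30120_1 and 16466_1 above 0, and BCL2 probes 16789_1 and 17646_1 and BAX probe 35175_1 below 0. Probes of the same gene share their target and are not replicates.

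**Figure D2:**
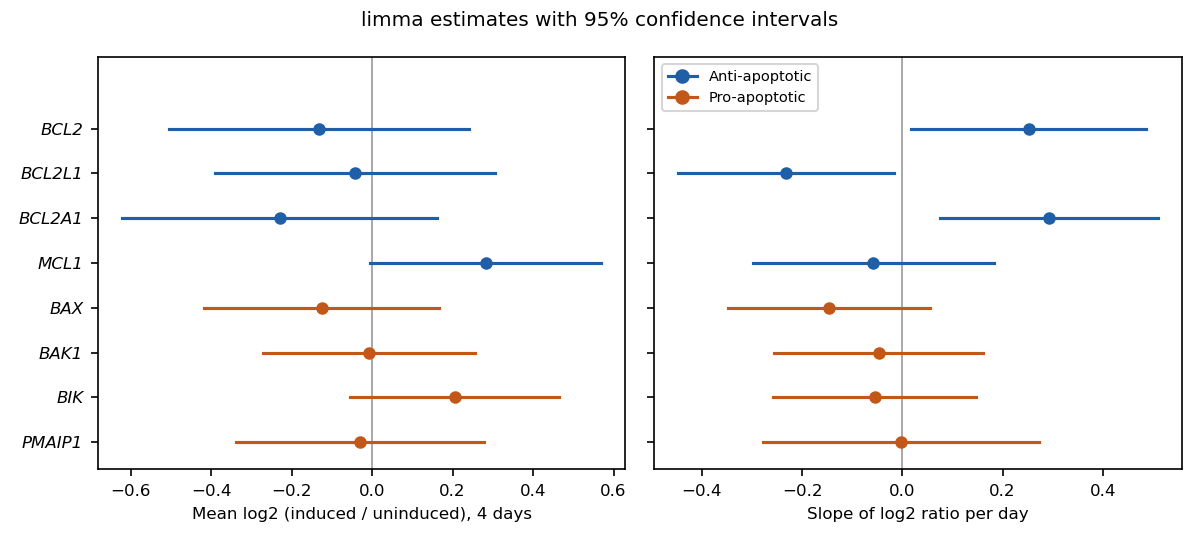
limma estimates for the 8 measured members, with 95% confidence intervals as bars: the mean log2 ratio of induced over uninduced cells over the 4 arrays (left) and the slope of that ratio per day (right). Every interval of the mean reaches over 0; those of the BCL2, BCL2A1 and BCL2L1 slopes do not before adjustment, and no slope passed after it.

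The second comparison asked whether members changed over the days. No slope passed (limma, 0 of 8 members, where 0% of 6427 features passed), while 3 members had an unadjusted p under 0.05, where 15.0% of features did. All 3 were anti-apoptotic. The slope of BCL2A1 was 0.29 ± 0.087 per day on the log2 scale (SE, 4 arrays; limma adjusted p = 0.31), and that of BCL2 was 0.25 ± 0.094 (limma adjusted p = 0.32). BCL2L1 had a slope of -0.23 ± 0.086 (limma adjusted p = 0.32). The BCL2A1 slope was 0.14 without probe 26039_1, a probe left out after its values were seen. The BCL2L1 slope was -0.37 over its only complete probe, and the BCL2 slope was 0.19 over its 4 complete probes. After scaling to an equal spread per array these slopes were 0.26 for BCL2A1, 0.24 for BCL2 and -0.24 for BCL2L1.

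The slopes of the other members were smaller. BAX had a slope of -0.15 ± 0.081, MCL1 of -0.058 ± 0.096, BIK of -0.055 ± 0.081, BAK1 of -0.048 ± 0.084 and PMAIP1 of -0.0027 ± 0.11 (SE, 4 arrays; limma adjusted p between 0.41 and 0.99). Set as days 3 and 4 minus days 1 and 2, the difference was 0.67 ± 0.18 for BCL2A1, 0.61 ± 0.18 for BCL2 and -0.53 ± 0.18 for BCL2L1 (SE; limma adjusted p = 0.23, 0.23 and 0.25). The median over all features also differed between these days, at -0.062, -0.081, 0.017 and 0.012 on days 1 to 4. The spread of the arrays and the number of missing values changed between the same days, and their part in these slopes was not tested beyond the scaling above.

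Set against each other by the root-mean-square difference of their log2 ratios over the 4 arrays, the closest members were BCL2 and BCL2A1 (0.12), followed by MCL1 and BIK (0.16) and BCL2L1 and BAX (0.18). The farthest apart were BCL2A1 and MCL1 (0.67). The closest pair is of the same role, while the next 2 pairs join a survival gene with a death gene. By the same measure over 3761 other named genes, the genes most like BCL2A1, the one member with a value of at least 0.5 in size, were FOS (0.034), a subunit of the AP-1 factor, CD84 (0.059), a lymphocyte surface receptor, and ASB13 (0.071). FOS read -0.64, -0.50, -0.023 and 0.17 on days 1 to 4. It was picked for its likeness to BCL2A1, so sharing the low days follows from the choice. How close the nearest of so many genes would lie by chance was not tested.

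The third comparison set the anti-apoptotic against the pro-apoptotic members. The medians of the 4 genes on each side were -0.037 against 0.086 on day 1, -0.18 against -0.012 on day 2, 0.057 against 0.0285 on day 3, and 0.21 against -0.10 on day 4. The anti-apoptotic median was thus the lower on days 1 and 2 and the higher on days 3 and 4. Over the 4-day means the anti-apoptotic median was -0.087 and the pro-apoptotic -0.019, a difference of -0.068, and the median of all features was -0.032. The 4 per-day differences of the medians were -0.12, -0.17, 0.028 and 0.31, with a mean of 0.013 and an SD of 0.22. That mean has the opposite sign to the -0.068 between medians of the 4-day means, and no difference in either direction is shown. The sides overlapped on every day. On day 4 the anti-apoptotic genes ran from -0.30 to 0.35 and the pro-apoptotic from -0.36 to 0.13, with 3 of 4 above 0 on the anti-apoptotic side and 3 of 4 below 0 on the pro-apoptotic side. On day 1 all 4 pro-apoptotic genes were above 0, from 0.0068 to 0.33, and the anti-apoptotic genes were split, from -0.62 to 0.50. Over probes with at least 3 values, the anti-apoptotic against pro-apoptotic medians were 0.044 against 0.11 on day 1, -0.067 against 0.010 on day 2, -0.036 against 0.030 on day 3 and 0.13 against -0.16 on day 4. By probe the anti-apoptotic side was thus the higher on day 4 alone, and the order on day 3 was the reverse of that by gene.

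**Figure D3:**
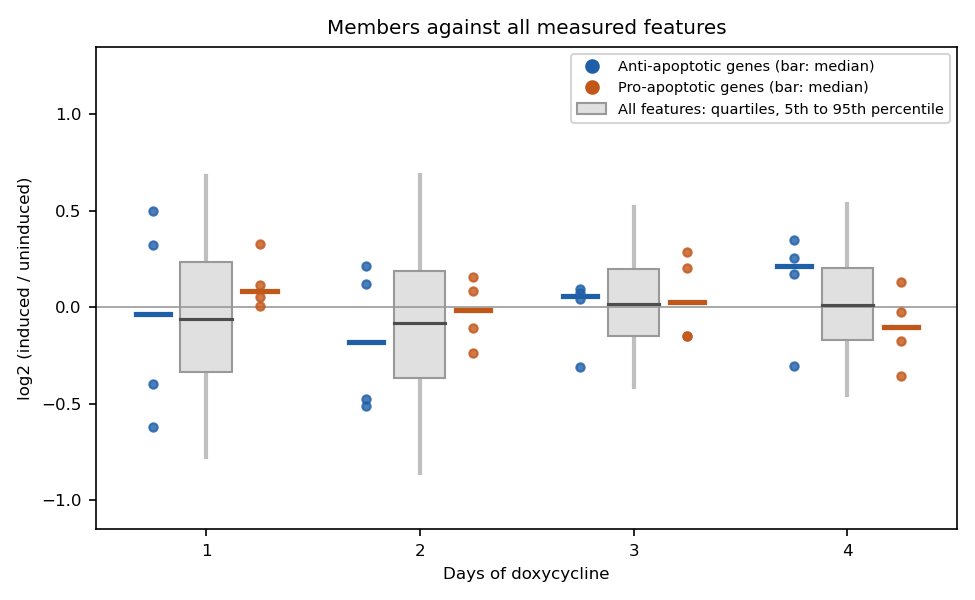
Log2 ratio of induced over uninduced cells (vertical axis) by days of doxycycline (horizontal axis) for the anti-apoptotic genes (left of each day) and the pro-apoptotic genes (right of each day), with short bars at their medians. Grey boxes span the quartiles of all features, with the median, and grey lines the 5th to 95th percentile. Every member lies within that range on every day, and the anti-apoptotic median lies below the pro-apoptotic one on days 1 and 2 and above it on days 3 and 4 (by probe, on day 4 alone).

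With 8 member genes, counts at a set size on a single day cannot be told apart from the share over all features. Each member gene also averages several probes, while an unnamed probe is a feature by itself, so their sizes are not strictly alike. On days 2, 3 and 4 no member gene reached 1.5-fold either way, a size that 19.4%, 5.27% and 6.48% of features reached, and on day 1 only BCL2A1 did, where 18.1% of features did. On day 2, 6.78% of features were that far higher and 12.6% lower, on day 3 3.58% and 1.69%, and on day 4 4.09% and 2.39%. The median size of the log2 ratio was 0.33, 0.18, 0.15 and 0.21 over the members on days 1 to 4, and 0.29, 0.28, 0.17 and 0.19 over all features. Single member probes went further. On day 1, 5 of 27 were at least 1.5-fold higher and 4 lower, where 9.56% and 11.7% of all probes were. On day 2, 0 of 24 were higher and 4 lower, where 8.02% and 13.7% of all probes were. On day 3, 1 of 28 was higher and 1 lower, where 4.78% and 2.86% of all probes were. On day 4, 3 of 29 were higher and 1 lower, where 5.26% and 3.68% of all probes were.

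In the lists of other family and pathway genes, here and below, no gene passed. Over all features 0.337% passed on the mean and 0% on the slope. At these shares a count of 0 is likely for any short list and says nothing particular about these genes. Of 15 other family members 10 were measured, and 0 passed on the mean or the slope (limma), with a median mean of -0.050 against -0.032 over all features. BCL2L10, a survival protein, had the lowest mean, -1.47 ± 2.22 (SD, 3 arrays; limma adjusted p = 0.48), which rests on a single probe at -4.04 on day 2 against -0.22 and -0.17 on days 3 and 4. BCL2L14 read -0.90, -0.42, -0.026 and 0.049 on days 1 to 4, the mitophagy receptor BNIP3L had a mean of -0.285 ± 0.18 and the BH3-only gene BBC3 (PUMA) of -0.18 ± 0.40 (SD, 4 arrays).

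Of 12 binding partners and regulators of protein stability 4 were measured, and 0 passed on the mean or the slope (limma). TPT1, a protein that binds MCL1, had the highest mean, 0.52 ± 0.26 (SD, 4 arrays; limma adjusted p = 0.22), with 0.64, 0.77, 0.17 and 0.52 on days 1 to 4. The BCL2-binding co-chaperone BAG1 had a mean of 0.33 ± 0.25, the BAX activator MOAP1 of 0.073 ± 0.25 and USP9X, a deubiquitinase of MCL1, of -0.074 ± 0.074.

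Downstream of the mitochondria, 6 of 12 genes were measured and 0 passed on the mean or the slope (limma), with a median mean of 0.018. The flavoprotein AIFM1 was above 0 on every array and had a mean of 0.25 ± 0.15 (SD, 4 arrays; limma adjusted p = 0.43). Cytochrome c (CYCS) had a mean of 0.067 ± 0.28, the initiator caspase CASP9 of -0.051 ± 0.10 and DFFA, the inhibitor of the caspase-activated nuclease, of 0.045 ± 0.16. Of 7 caspase inhibitors 6 were measured, 5 with a mean below 0, and 0 passed on the mean or the slope (limma). CFLAR (FLIP) was below 0 on every array at -0.23 ± 0.098 (SD, 4 arrays, limma adjusted p = 0.44). BIRC2 had a mean of -0.195 ± 0.21, XIAP of 0.20 ± 0.18 (3 arrays) and BIRC6 of -0.12 ± 0.39. The BIRC2 mean joins probes of opposite sign. The lower probe read -0.54, -0.34, -0.99 and -1.01 on days 1 to 4, and the higher read 0.035, 0.55, 0.46 and 0.27. Both of these probes had all 4 values. One setting took a single probe per gene, by fewest missing values and then lowest probe number. For BIRC2 the number decided, the lower probe was taken and the mean was -0.72.

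Of 19 transcription factors known to act on family genes 14 were measured, and 0 passed on the mean or the slope (limma). The NF-κB subunits NFKB2 and RELB had the lowest means. RELB read -0.94, -0.85, -0.65 and -0.47 on days 1 to 4 (mean -0.73 ± 0.21, SD; limma adjusted p = 0.094). NFKB2 read -0.76, -1.50, -0.76 and -0.51 (mean -0.88 ± 0.43, SD; limma adjusted p = 0.13). Both were below 0 on all 4 days. Both passed with a single probe per gene, chosen as above (-1.14 for RELB and -1.31 for NFKB2), where 22 of 7701 features did. Among the probes with all 4 values, the probe number decided for each gene. The other such RELB probe read -0.41, -0.51, -0.15 and -0.45 on days 1 to 4. The other such NFKB2 probes read -0.98, -1.62, -1.30 and -1.03, then -0.15, -0.635, -0.64 and -0.61, and last -1.39, -2.36, -0.30 and 0.58. With array weights both genes passed (-0.63 for RELB and -0.74 for NFKB2), where 291 of 7713 features did. On days 3 and 4 alone both passed (-0.56 and -0.63), where 569 of 8650 features did. The array weights favoured days 3 and 4 (3.02 and 1.8) over days 1 and 2 (0.41 and 0.45). Neither gene passed in any other setting fitted per gene. RELA had a mean of 0.50 ± 0.68 (SD, 4 arrays; limma adjusted p = 0.45), with 0.51, 1.44, 0.13 and -0.089 on days 1 to 4. Without the day 2 array it was 0.18, and on days 3 and 4 alone 0.020. The RELA values of days 1 and 2 rest on a single probe, which read 0.135 and 0.016 on days 3 and 4. Another probe entered on those later days alone, at 0.125 and -0.19. STAT3, a known activator of MCL1 and BCL2L1 transcription, had a mean of 0.31 ± 0.24 (SD, 4 arrays; limma adjusted p = 0.40), and 0.20 without the day 1 array.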

How the data were processed

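The authors' deposited values are log ratios per probe for each of the 4 arrays, used as log2 of Cy5 over Cy3; the direction comes from the dyes per the labels' protocols, and the sources used here do not give the log base, background correction, normalization or spot filter. Array medians lay between -0.068 and 0.004. Of 15246 probes, 10169 had 1 gene symbol, 4 had several and 5073 are unnamed here; symbols were updated by Entrez identifier with RefSeq (GRCh38.p14). Probes of a gene were averaged per array, giving 9681 features.

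The mean against 0 (features with at least 3 values) and the slope on day (4 values) were fitted over all features with limma 3.58.1 in R 4.3.3 (lmFit, eBayes, two-sided) and adjusted by Benjamini-Hochberg, after a check on simulated data. The 4 arrays are different days, not replicates of 1 condition, and the labels do not name separate cultures. The p-values therefore reflect array-to-array spread alone, which may be technical. In the test of the mean, any change over the days also counts as part of that spread. Single days have no replicate check. The number of arrays limits the precision.

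The members and lists were chosen with earlier results of these data known. Every member and probe is named; of each other family or pathway list, the 4 genes with the largest mean in size and any that passed. Marker lists are given by counts, with the gene that passed and the other globin gene. Likeness was computed for members with all 4 values and one of at least 0.5 in size, naming 3 genes. Alternatives were other probe summaries, scalings, filters and subsets of arrays.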

Additional observations from a re-analysis of the deposited data

How the results depend on the processing

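In no setting tried did a member pass the threshold on the mean or on the slope (limma; smallest member adjusted p = 0.10, for the BCL2A1 slope without the day 2 array). The number of features called on the mean, 26, was 55 with each probe as its own feature, 3 with arrays scaled to the same spread, 0 with quantile normalization (1083 at an unadjusted p under 0.05), 291 with array weights, 42 with features on all 4 arrays, 1 with days 1 and 2 alone, 569 with days 3 and 4 alone, and 3 to 5 leaving out an array. For the slope it was 0 throughout. The anti-apoptotic minus pro-apoptotic difference between medians of the means over days was -0.068. It was -0.12 to -0.036 leaving out an array, -0.069 with arrays scaled to the same spread and -0.011 by probe. No test was run on it. The sign of these means turned. With array weights BCL2 was 0.063, PMAIP1 0.078, CYCS -0.11 and BIRC6 0.050. With days 3 and 4 alone BCL2 was 0.17, BCL2A1 0.11, PMAIP1 0.055, BCL2L14 0.012, CYCS -0.15 and BIRC6 0.12, and with days 1 and 2 alone BCL2L1 was 0.22, BAX 0.0044, BAK1 0.070 and DFFA -0.042. Another setting took a single probe per gene, by fewest missing values and then lowest probe number. There BCL2L1 was 0.097, BAX 0.078, BAK1 0.058, CYCS -0.056, CASP9 0.14 and DFFA -0.050. Of these genes, BCL2L1 and BAK1 had a single complete probe. For BAX, CYCS, CASP9 and DFFA the probe number decided among complete probes. The members that kept their sign in that setting moved too, and for all of them the probe number decided. BCL2 was -0.60 (limma adjusted p = 0.16), BCL2A1 -0.025, PMAIP1 -0.0935, MCL1 0.43 and BIK 0.088. Among the caspase inhibitors BIRC2 was -0.72 and BIRC6 -0.50 in that setting, also without turning and also by probe number. With complete probes only, the means that turned were BCL2L1 at 0.097, BAK1 at 0.058 and CASP9 at 0.078. With arrays centred on their medians BAK1 was 0.020. Leaving out an array gave BCL2L1 -0.16 to 0.046, BAK1 -0.039 to 0.038, PMAIP1 -0.13 to 0.039, MOAP1 -0.021 to 0.18, CYCS -0.043 to 0.17, DFFA -0.00017 to 0.12 and BIRC6 -0.21 to 0.068. Without turning, BCL2 ran from -0.26 to -0.017 (lowest in size without day 2), BCL2A1 from -0.36 to -0.10 (without day 1), BAX from -0.21 to -0.047 (without day 4), BCL2L14 from -0.45 to -0.13 (without day 1), BBC3 from -0.38 (without day 2) to -0.10, BIRC2 from -0.30 (without day 2) to -0.14, CASP9 from -0.10 (without day 2) to -0.028, USP9X from -0.11 to -0.047 (without day 4), RELA from 0.18 (without day 2) to 0.69 and STAT3 from 0.20 (without day 1) to 0.37, each moved by over 1.5 times; the MCL1 and BIK means, at 0.21 to 0.35 and 0.16 to 0.23, were not. Leaving out single probes, chosen after seeing the data, gave BCL2L1 0.097 without 24267_1, BAK1 0.058 without 28705_1 and PMAIP1 0.0018 without 19236_1. Of the slopes, MCL1 ran from -0.21 to 0.069 and PMAIP1 from -0.048 to 0.14 leaving out an array. Without turning, the BAX slope ran from -0.15 to -0.13 leaving out an array and was -0.0035 with a single probe per gene. The BAK1 slope was 0.016 with the most complete probe, with complete probes and without 28705_1, BIK 0.027 without 17178_1, and PMAIP1 0.0064 with complete probes, 0.17 as days 3 and 4 minus days 1 and 2, 0.012 without 17640_1 and 0.022 without 27289_1. The causes were not tested. Each log ratio already pairs induced with uninduced cells on 1 array. No paired analysis was possible because no further replicate number is shared, each day having 1 array. No spot intensities were used here, so what dim spots limit is unknown.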
